A study of Mus musculus with 6 samples.

Results

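This report describes the heat shock proteins, the J-proteins and the CCT chaperonin in day 4 embryoid bodies (D4 EBs) of 2 gene-edited mouse embryonic stem cell lines. The genes were chosen by their symbols alone (*Hspa*, *Hspb*, *Hspd*, *Hspe*, *Hsph* and *Hsp90* genes, *Dnaja*, *Dnajb* and *Dnajc* genes, *Cct2* to *Cct8*, and *Tcp1*), and 78 of the 15266 listed genes matched. Both lines were derived from W9.5 mESCs and both lack intact *Evx1*, a homeobox gene of the primitive streak. EVX1-Δfs (clone 14) carries small CRISPR-Cas9 frameshifts in both *Evx1* alleles and keeps the antisense lncRNA *Evx1as*, whereas Del#3 lacks 2.6 kb that hold the promoters of both transcripts. Each line is a clonal line, so what is particular to a clone and what follows from its edit cannot be told apart. Both were grown in suspension for 4 days in serum-containing medium without LIF, and mRNA-seq was performed on 3 EB samples of each. The replicates were differentiations begun on different days with both lines side by side, and samples of the same number were taken to share a day. No unedited W9.5 sample was analysed here.

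Molecular chaperones bind unfolded or partly folded proteins and help them reach their native state. The HSP70 proteins do so in cycles of ATP hydrolysis that J-proteins (the DNAJ families) start and that HSP110 proteins and other nucleotide exchange factors reset. HSP90 acts later, on clients such as kinases and receptors, while HSP60 with its lid HSP10 in mitochondria and the CCT complex in the cytosol form ring-shaped chambers that enclose their substrates. CCT is built from different subunits encoded by *Tcp1* and *Cct2* to *Cct8*, and actin and tubulin are its best known substrates. Cells that divide quickly, embryonic stem cells among them, hold high levels of constitutive chaperones. A further set is induced by heat shock factor through heat shock elements, or by unfolded protein in the endoplasmic reticulum (ER) through ER stress elements.

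The promoters of the genes were read from RefSeq (GRCm38.p6) as windows of 300 bases, 250 before and 50 after the annotated start, which were found for 64 of the 78 genes. The windows were searched on both strands for 3 adjacent inverted heat shock units (GAA, TTC and GAA, or TTC, GAA and TTC, each spaced by 2 bases of any kind) and for the ER stress element (CCAAT and CCACG with 9 bases of any kind between them). The 3 units were found in *Dnajb6*, *Hspd1*, *Hspe1* and *Hsph1*, 4 of 64 genes, against 0.662% of the 27025 genes in the table. The ER stress element was found in *Dnajc3*, *Hsp90b1* and *Hspa5*, 3 of 64 genes, against 0.137% of all genes. The shorter pattern of 2 units (GAANNTTC or TTCNNGAA), which lies inside the longer one, was in 17 of 64 genes and in 17.0% of all genes. A match describes the letters only and was not measured as binding. The windows of *Hspe1* (chr1:55087898-55088197, plus strand) and *Hsph1* (chr5:149636287-149636586, minus strand) are shown because they hold the 3 heat shock units, and those of *Hsp90b1* (chr10:86705395-86705694, minus strand) and *Hspa5* (chr2:34771840-34772139, plus strand) because these ER chaperones share the ER element and yet differed in the order of their levels over the libraries. All are written 5′ to 3′ on the gene's strand, and capitals mark the matches of the 3 units or of the ER stress element only.
Hspe1: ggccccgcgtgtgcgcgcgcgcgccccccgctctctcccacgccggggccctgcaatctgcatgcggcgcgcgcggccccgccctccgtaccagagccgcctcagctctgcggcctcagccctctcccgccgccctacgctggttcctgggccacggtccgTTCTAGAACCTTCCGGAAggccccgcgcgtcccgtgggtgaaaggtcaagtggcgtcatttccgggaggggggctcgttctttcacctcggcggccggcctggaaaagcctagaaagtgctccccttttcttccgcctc
Hsph1: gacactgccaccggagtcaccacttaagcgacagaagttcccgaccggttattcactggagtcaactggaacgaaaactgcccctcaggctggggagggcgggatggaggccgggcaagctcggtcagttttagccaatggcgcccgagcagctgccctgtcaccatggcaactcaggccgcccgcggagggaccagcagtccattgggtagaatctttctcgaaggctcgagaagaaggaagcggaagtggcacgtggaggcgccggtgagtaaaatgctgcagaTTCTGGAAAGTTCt
Hsp90b1: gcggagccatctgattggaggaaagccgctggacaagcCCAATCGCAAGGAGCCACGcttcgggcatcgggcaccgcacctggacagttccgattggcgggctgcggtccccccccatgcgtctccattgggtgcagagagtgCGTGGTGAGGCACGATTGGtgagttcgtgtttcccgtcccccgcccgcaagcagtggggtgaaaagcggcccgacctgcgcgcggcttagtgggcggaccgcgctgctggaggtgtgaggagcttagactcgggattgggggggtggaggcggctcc
Hspa5: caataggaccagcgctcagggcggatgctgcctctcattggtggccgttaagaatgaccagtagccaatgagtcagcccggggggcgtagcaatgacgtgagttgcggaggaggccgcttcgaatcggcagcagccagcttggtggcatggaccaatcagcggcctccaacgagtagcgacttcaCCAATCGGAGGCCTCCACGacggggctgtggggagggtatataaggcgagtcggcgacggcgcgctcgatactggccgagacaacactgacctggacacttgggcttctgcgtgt
In *Hspe1* the capitals are 2 overlapping matches of 3 units. *Hspd1* is transcribed from the other strand and 1 of its windows shares 285 of its bases with that of *Hspe1*, so both windows hold the same heat shock units. In *Hsp90b1* the ER stress element occurs at 2 places, once on each strand, and in *Hspa5* at 1 place.

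The deposited table gave the depth and the identity of the lines. Reads on listed genes numbered 9024579 to 15699124 per EVX1-Δfs library and 9729013 to 12231851 per Del#3 library, and in each line the library of replicate 1 was the deepest. The 78 genes took 1.78 to 2.17% of the reads of an EVX1-Δfs library and 1.81 to 2.13% of those of a Del#3 library. *Evx1* had 2582 to 4023 reads in EVX1-Δfs and 28 to 48 in Del#3 (limma log2 difference −6.45, SE 0.25, adjusted p = 1.05e-06), and *Evx1as* 571 to 879 and 21 to 30 (−4.70, SE 0.32, adjusted p = 0.000155). With n = 3 per line, the smallest p of the two-sided exact permutation test is 0.1, which both genes reached. Defining markers of the labelled tissue were present in every library. *T*, which marks nascent mesoderm, was at 1098 to 1224 normalized counts in EVX1-Δfs and 881 to 1346 in Del#3, and *Pou5f1*, a pluripotency factor, at 6464 to 6626 and 4444 to 7890. The libraries hold RNA of all cells of the EBs, so fewer cells of a type and less RNA per cell cannot be told apart.

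The levels of the 78 genes, given as reads divided by the length of all annotated exons and by the library's reads on listed genes (RPKM), spanned more than 4 orders of magnitude. *Hsp90ab1*, the constitutive cytosolic HSP90, was at 1381 ± 346 RPKM (SD, n = 3) in EVX1-Δfs and 1491 ± 303 in Del#3. *Hspa8*, the constitutive HSP70, followed at 785 ± 100 and 715 ± 53.4 RPKM. These genes held 38.5% of all reads on the 78 genes. The highest CCT subunits came next, with *Cct6a* at 637 ± 188 and 550 ± 130 RPKM and *Cct7* at 563 ± 132 and 545 ± 155. The 8 widely expressed CCT genes (the subunit genes other than *Cct6b*) held another 28.6% of the reads. By their mean over all 6 libraries, 14 genes were above 100 RPKM, 26 between 10 and 100, 27 between 1 and 10, and 11 below 1.

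The chaperones of the organelles were at intermediate levels. *Hspa5*, the HSP70 of the ER (BiP), had 217 ± 48.9 RPKM in EVX1-Δfs and 186 ± 41.6 in Del#3. *Hspe1*, which encodes the mitochondrial HSP10, had 161 ± 50.5 and 132 ± 27.4, and *Hspd1*, which encodes its partner HSP60, 143 ± 78.8 and 130 ± 54.0. *Hspa9*, the mitochondrial HSP70, had 81.7 ± 32.9 and 72.1 ± 29.4. *Hspa5*, *Hspe1* and *Hspd1* changed order between libraries, whereas *Hspd1* was above *Hspa9* in all 6. Per kb of the longest coding transcript, *Hspe1* was at 279 and *Hspd1* at 149 RPKM over all libraries, against 147 and 137 per kb of all exons. Among the J-proteins, *Dnaja2* and *Dnajb1*, both cytosolic partners of HSP70, were at 134 and 93.0 RPKM over all libraries, *Dnajc8*, a J-protein of the spliceosome, at 86.9 and *Dnajc9*, a histone chaperone, at 58.6. Their order rests on the length used, since per kb of the longest coding transcript they were at 134, 102, 158 and 58.6 RPKM. The inducible HSP70 genes were low, with *Hspa1a* at 4.76 and *Hspa1b* at 1.19 RPKM over all libraries. Of the small heat shock proteins, *Hspb1* (HSP27) was at 69.8 RPKM and *Hspb7*, named for its presence in heart, at 0.0858.

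**Figure D1:**
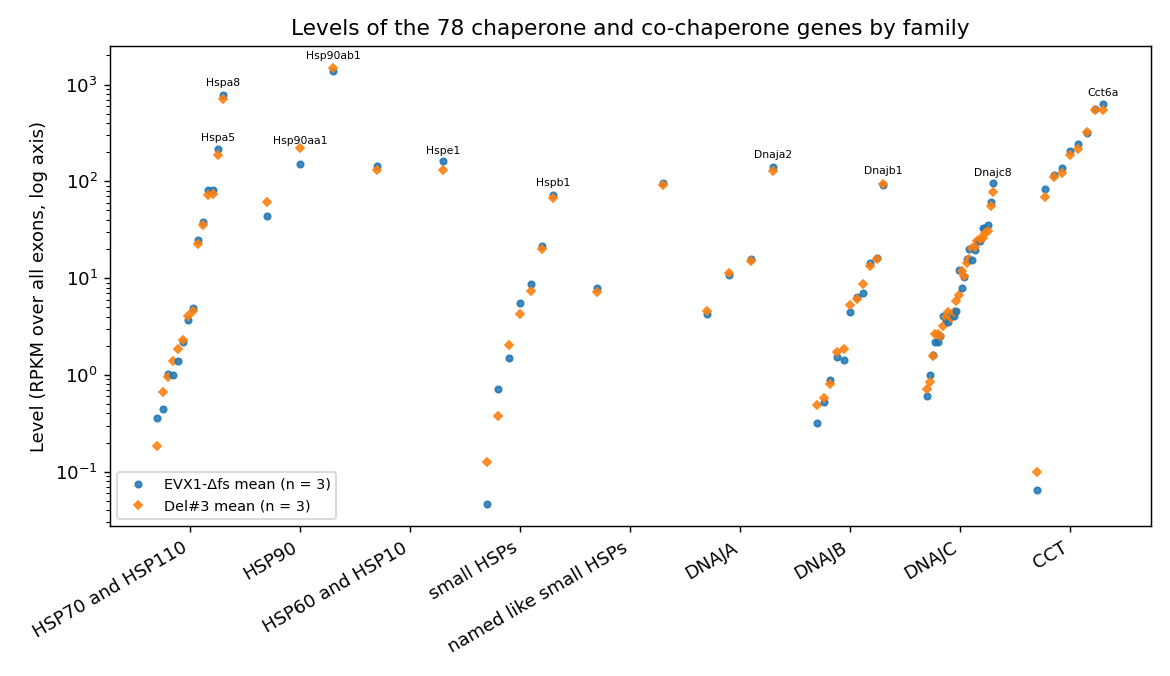
Level of each of the 78 genes by family, as mean RPKM over all annotated exons on a log axis, with circles for EVX1-Δfs and diamonds for Del#3 (n = 3 libraries each). *Hsp90ab1* and *Hspa8* are the highest points, and the circles and diamonds of most genes lie close together.

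Not every value can be assigned to its gene with the same certainty. Many chaperone genes have processed pseudogenes, and the share of 31-base stretches of a gene's exons that recur elsewhere in the genome (NCBIM37) was 82.1% for *Hspa8*, 82.0% for *Dnajb6*, 77.0% for *Hsp90aa1*, 69.4% for *Hspd1*, 68.6% for *Hspb1* and 50.5% for *Hspe1*. The near-identical pair *Hspa1a* (chr17:35106144-35109069 in mm9) and *Hspa1b* (chr17:35093381-35096183) had 66.2 and 68.5%, so reads of one could have been counted for the other or for neither. These 8 genes were the only ones above 50%, the median over the 78 genes was 1.03%, and 28 genes had no such stretch. *Hspd1* and *Hspe1* overlap at their starts on opposite strands, and the counting was done with HTSeq at standard settings, whose default counts by strand. Whether that setting suited these libraries is not given in the sources used here.

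Of the 78 genes, 72 had enough reads to be tested. *Cct6b*, *Dnajb3*, *Dnajb13*, *Hspa1l*, *Hspb7* and *Hspb9*, several of which are known from testis or muscle, did not pass the filter. *Hspa1l*, for example, had 2.64, 14.1 and 11.8 normalized counts in the EVX1-Δfs libraries, in the order of replicate number kept for all values given here, and 2.39, 6.97 and 5.34 in Del#3.

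The comparison of Del#3 with EVX1-Δfs asks whether loss of *Evx1as* and its promoters in addition to EVX1 goes with other levels of these genes. None of the 72 tested genes passed the threshold of 0.05 after Benjamini-Hochberg adjustment in limma, where 0.0155% of all 12891 tested genes did (*Evx1* and *Evx1as*). At an unadjusted p under 0.05 there was 1 gene of the 72, *Dnajc19*, against 1.03% of all genes. edgeR's quasi-likelihood test and DESeq2 on the recovered reads also called 0 of the 72 (0.0155% and 0.0233% of all genes), each with 1 at an unadjusted p under 0.05. A limma fit that kept the days as blocks gave 0 (0.0233% of all genes), with 3 at an unadjusted p under 0.05 (4.62% of all genes). The log2 difference (Del#3 minus EVX1-Δfs, on log2 of the normalized count + 1) ran from −0.87 to 0.68. It was above 0 for 30 genes and below 0 for 42, with a median of −0.086 against 0.0022 over all tested genes. In the same-numbered pairs of libraries the median over the 72 genes was −0.038, 0.058 and −0.20 (SD 0.13), so it did not keep its sign.

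A p that misses the threshold does not show that the lines were alike, and the intervals give the size of difference that these libraries leave possible. The 95% interval of the log2 difference lay within a 2-fold change for 53 of the 72 genes (73.6%), against 61.1% of all tested genes. All 8 tested CCT genes were among the 53, as were the 4 DNAJA genes and *Hspd1* and *Hspe1*, and 8 of 9 DNAJB genes. The intervals that reached past 2-fold in either direction belonged to 9 of 26 DNAJC genes, 4 of 13 genes of the HSP70 and HSP110 group, 2 of 3 HSP90 genes, 3 of 5 small heat shock proteins and 1 DNAJB gene. With the days as blocks, 63 of the 72 intervals lay within 2-fold (87.5%, against 76.2% of all tested genes). These included 23 of 26 DNAJC, 11 of 13 HSP70 and HSP110, 2 of 3 HSP90, 3 of 5 small heat shock and 8 of 9 DNAJB genes.

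**Figure D2:**
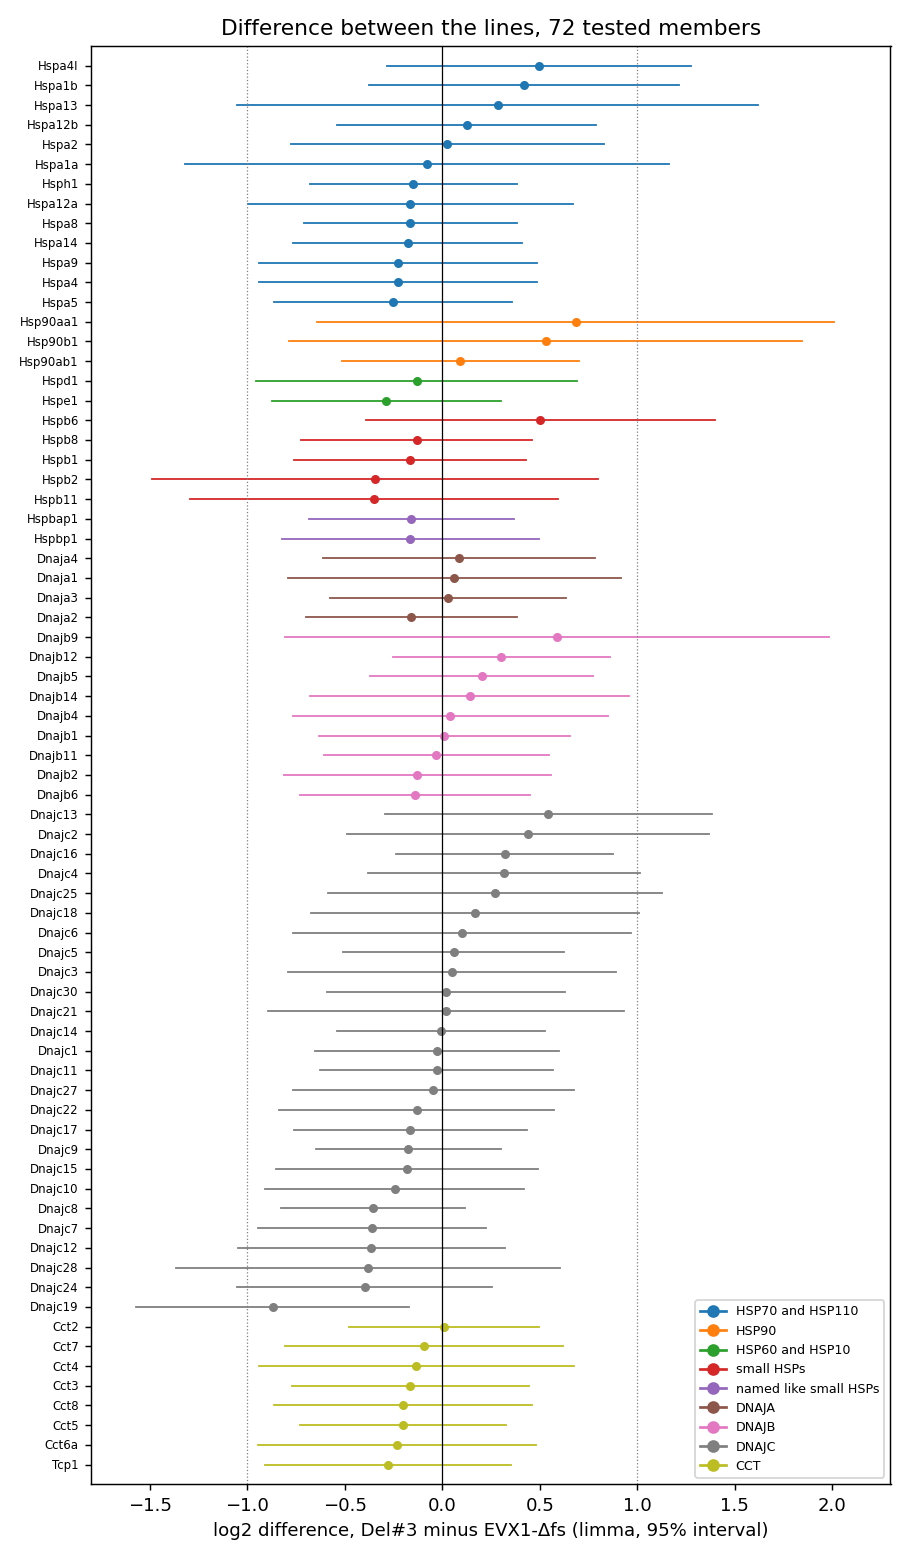
Log2 difference between the lines (Del#3 minus EVX1-Δfs) for the 72 tested genes with its 95% interval from limma (3 libraries per line), coloured by family, with dotted lines at a 2-fold change. Only the interval of *Dnajc19* lies clear of 0, and those of *Hsp90aa1*, *Hsp90b1*, *Hspa13* and *Dnajb9* are the widest on the upper side.

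*Dnajc19*, a J-protein of the inner mitochondrial membrane, had the lowest difference. EVX1-Δfs gave 447, 415 and 697 normalized counts in the order of the replicate numbers, and Del#3 gave 194, 370 and 293. The highest Del#3 library was still below the lowest EVX1-Δfs library. The log2 difference was −0.87 (SE 0.32, 95% interval −1.57 to −0.17), with an unadjusted limma p of 0.0198, an adjusted limma p of 1.00 and an exact permutation p of 0.1. Within the pairs it was −1.20, −0.16 and −1.25. *Dnajc19* overlaps *Fxr1* on the opposite strand. Next were *Dnajc24*, a J-protein of diphthamide synthesis, at −0.40 (95% interval −1.05 to 0.26, and −0.20 without Del#3 replicate 1 or −0.21 without EVX1-Δfs replicate 3), and *Dnajc28* at −0.38 (−1.37 to 0.60, and −0.04 without Del#3 replicate 2).

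At the other end stood *Hsp90aa1*, the stress-inducible cytosolic HSP90. It had 9043, 1704 and 8260 normalized counts in EVX1-Δfs and 14827, 7228 and 4924 in Del#3. The lines overlapped, since the lowest value was EVX1-Δfs replicate 2 and the next lowest Del#3 replicate 3. The log2 difference was 0.68 (SE 0.60, 95% interval −0.64 to 2.01), and without EVX1-Δfs replicate 2 it was −0.10. *Dnajb9*, an ER J-protein that restrains the stress sensor IRE1, had 56.8, 9.38 and 17.7 normalized counts in EVX1-Δfs and 55.8, 29.0 and 21.4 in Del#3 (log2 difference 0.59, 95% interval −0.81 to 1.99). Without EVX1-Δfs replicate 2 it was 0.03 and without EVX1-Δfs replicate 1 it was 1.27. *Dnajc13*, a J-protein of endosomes, had 1004, 509 and 445 in EVX1-Δfs and 1356, 578 and 901 in Del#3. Each of the 3 pairs had its higher value in Del#3 (log2 difference 0.54, 95% interval −0.29 to 1.38, and 0.09 to 1.00 with the days as blocks). The difference was 0.24 without Del#3 replicate 1, 0.90 without EVX1-Δfs replicate 1, and 0.29 with the blocks and a correction for GC content and length.

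The 2 lines did not overlap for 6 genes of the 72, where 3.51% of all tested genes did not overlap. *Dnajb12*, *Dnajc4*, *Dnajc16* and *Hspa1b* were higher in every Del#3 library, and *Dnajc8* and *Dnajc19* lower. *Hspa1b* was at 34.3, 24.6 and 31.9 normalized counts in EVX1-Δfs and 38.3, 39.5 and 43.8 in Del#3. *Dnajc8* was at 2706, 2296 and 2963 in EVX1-Δfs and 2017, 2160 and 2018 in Del#3 (log2 difference −0.36, 95% interval −0.83 to 0.12). None of these passed the adjusted threshold.

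No family held a gene that was called between the lines. Of the 13 tested HSP70 and HSP110 genes, 8 were below 0 and 5 above, with a median of −0.15. *Hspa8* had 38285, 30288 and 36436 normalized counts in EVX1-Δfs and 29722, 35517 and 28489 in Del#3 (log2 difference −0.16, 95% interval −0.71 to 0.38). *Hspa5* had a difference of −0.25 (−0.86 to 0.36), *Hspa9* of −0.23 (−0.94 to 0.49) and *Hsph1*, the HSP110 of the cytosol, of −0.15 (−0.68 to 0.38). The 3 HSP90 genes were above 0, with a median of 0.53 and a value of 0.09 (−0.52 to 0.70) for *Hsp90ab1*, but *Hsp90aa1* was lower in Del#3 in the pair of replicate 3 and *Hsp90ab1* slightly lower in the pair of replicate 2. *Hsp90b1*, the HSP90 of the ER, was at 0.53 (−0.79 to 1.85). It was higher in Del#3 in all 3 pairs, by 0.35, 0.89 and 0.35, where 12.1% of all tested genes were higher in all 3. With the days as blocks its interval was 0.12 to 0.94 (limma adjusted p = 0.890), and without EVX1-Δfs replicate 2 or Del#3 replicate 1 the difference was −0.01 or −0.03. *Hspd1* and *Hspe1* were at −0.13 (−0.96 to 0.69) and −0.29 (−0.88 to 0.30). Of the 5 tested small heat shock proteins, *Hspb6* was above 0 and 4 below, *Hspb1* among them at −0.17 (−0.76 to 0.43). The symbol *Hspb11* belongs to this group by name only, since its product is a component of intraflagellar transport. *Hspbap1* and *Hspbp1*, which match the pattern of symbols but encode proteins that bind HSP27 and HSP70, were at −0.16 each.

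The J-proteins and CCT were counted in the same way. Of the 4 DNAJA genes 3 were above 0 (median 0.05), of the 9 tested DNAJB genes 6 (median 0.04) and of the 26 DNAJC genes 11 (median −0.03). With DESeq2 in place of limma, 2 of 4, 5 of 9 and 11 of 26 were above 0, the DNAJA median was −0.02, and with total reads the DNAJC median was 0.01. *Dnaja1* was at 0.06 (−0.79 to 0.92) and *Dnajb1*, the main heat-inducible J-protein of the cytosol, at 0.01 (−0.63 to 0.65). Of the 8 CCT genes, 7 were below 0 and *Cct2* at 0.01, with a median of −0.18. The lowest was *Tcp1* at −0.28 (−0.91 to 0.35). The count of 7 of 8 was the same with TMM factors, with total reads, in edgeR and in DESeq2, but in the pair of replicate 2 libraries 5 of the 8 were higher in Del#3, and over all alternatives, leaving out single libraries included, *Tcp1* and *Cct5* alone kept their sign. The CCT genes lie on different chromosomes but were measured in the same libraries, so their common sign is not 8 separate observations.

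The libraries differed more by replicate number than by line. In the median over the 72 genes, replicate number accounted for 73.1% of the sum of squares of the log2 values and line for 7.87%, with 64.4 and 6.70% over all tested genes. By their degrees of freedom alone (2 and 1 of 5) the shares would be 40% and 20%. In a limma F test of replicate number, with line in the model, 5 of the 72 genes passed the adjusted threshold (6.94%), where 4.24% of all tested genes did. On simulated data this test made more false calls than its threshold allows. At an unadjusted p under 0.05 there were 26 (36.1%), where 27.7% of all genes did. Same-numbered libraries were taken to share a day and the lines stood in as its replicates, so each day rests on 2 libraries. The day of the differentiation, the depth of the library and its base composition cannot be told apart here.

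The genes called were 2 chaperones of the ER, an inducible HSP70, a CCT subunit and a J-protein of ribosome biogenesis. *Hsp90b1* (GRP94, the HSP90 of the ER; chr10:86152954-86168254 in mm9, minus strand) had 3635, 693 and 1264 normalized counts in EVX1-Δfs and 4646, 1283 and 1608 in Del#3. Replicate 1 was the highest and replicate 2 the lowest in each line. The log2 difference, averaged over the lines, was −2.12 for replicate 2 minus replicate 1 and −1.53 for replicate 3 minus replicate 1 (limma adjusted p = 0.0225). *Hsp90b1* was called in all 15 alternative analyses (adjusted p from 2.99e-12 to 0.0371). *Hspa13*, an HSP70-like protein of the microsomes, had 141, 34.0 and 89.8 in EVX1-Δfs and 206, 47.6 and 80.1 in Del#3, with differences of −2.06 and −1.001 (limma adjusted p = 0.0319).

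*Cct4* had 7682, 3395 and 4639 normalized counts in EVX1-Δfs and 6759, 2930 and 4636 in Del#3, with differences of −1.19 and −0.64 (limma adjusted p = 0.0412). *Dnajc21*, which acts in ribosome biogenesis, had 304, 135 and 183 in EVX1-Δfs and 346, 134 and 169 in Del#3, with differences of −1.27 and −0.88 (limma adjusted p = 0.0484). In both genes replicate 1 was again the highest. *Hspa1a*, by contrast, was lowest in replicate 1. It had 58.7, 238 and 171 normalized counts in EVX1-Δfs and 62.2, 158 and 207 in Del#3, a rise of 1.67 and 1.62 on the log2 scale (limma adjusted p = 0.0344). Its near-identical neighbour *Hspa1b* stayed between 24.6 and 43.8 in all 6 libraries (−0.21 and 0.04, limma adjusted p = 0.856). *Hspd1*, with 6408, 2631 and 3019 in EVX1-Δfs and 4744, 2272 and 3592 in Del#3, fell just outside the threshold (−1.17 and −0.74, limma adjusted p = 0.0537).

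**Figure D3:**
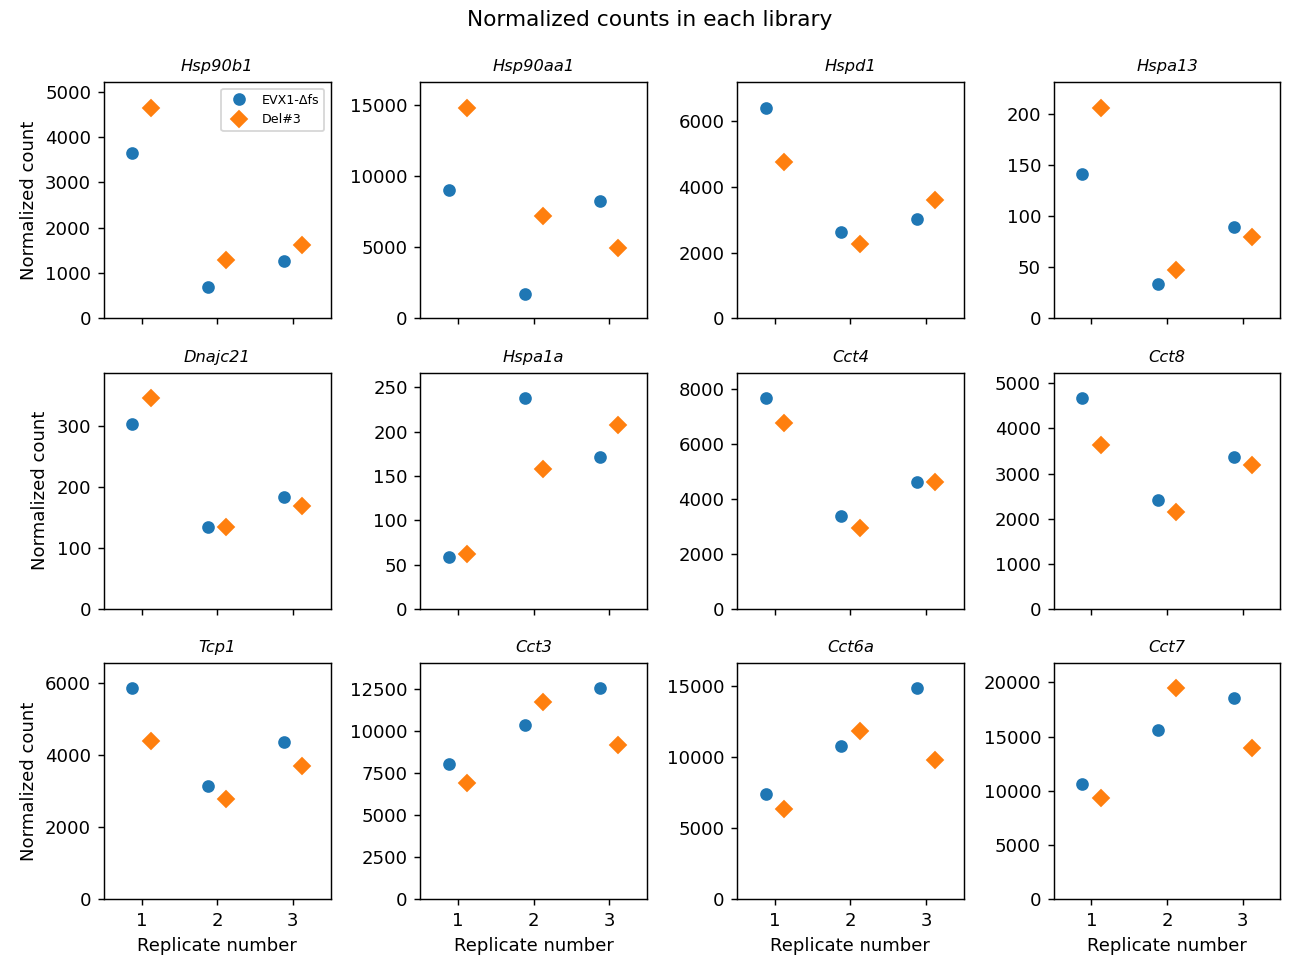
Normalized counts of 12 genes in the 6 libraries, by replicate number, with circles for EVX1-Δfs and diamonds for Del#3 and each axis starting at 0. The replicate 1 libraries are the highest for *Hsp90b1*, *Hsp90aa1*, *Hspd1*, *Hspa13*, *Dnajc21*, *Cct4*, *Cct8* and *Tcp1*, and the lowest for *Hspa1a*, *Cct3*, *Cct6a* and *Cct7*.

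The number of genes called between replicate numbers depended on single libraries and on the test. Without EVX1-Δfs replicate 1 it was 2 (1.5% of all genes) and without Del#3 replicate 1 it was 1, *Hsp90b1* (1.62%). Without EVX1-Δfs replicate 2 or 3 it was 20 (16.9%) or 16 (18.3%), and without Del#3 replicate 2 or 3 it was 17 (11.1%) or 22 (24.2%). In these last 4 fits the 5 genes were called each time. With TMM factors or total reads for scaling it was 3 (2.69 and 2.46% of all genes). edgeR's quasi-likelihood test called 4 (3.58% of all genes), which were the same genes without *Hspa1a*, and DESeq2's likelihood ratio test called 17 (11.2%), which included all 5.

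Both replicate 1 libraries lay above the other 4 libraries for 25 of the 72 genes, where 22.2% of all tested genes did, and below them for 16, where 22.7% did. This split was chosen after the values were seen. Those above included all 3 HSP90 genes, *Hspa4*, *Hspa9*, *Hspd1*, *Dnaja1*, *Dnajb9*, *Dnajb11*, *Dnajc3*, *Cct4*, *Cct8* and *Tcp1*. Those below included *Hspa1a*, *Hspa5*, *Hspa14*, *Dnaja2*, *Dnajb1*, *Hspb8*, *Cct3*, *Cct6a* and *Cct7*. Scaled to total reads rather than by size factors, replicate differences of all genes shifted downwards (median of replicate 2 minus 1 from −0.03 to −0.15), and the counts were 28 above (27.1% of all genes) and 12 below (17.9%).

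**Figure D4:**
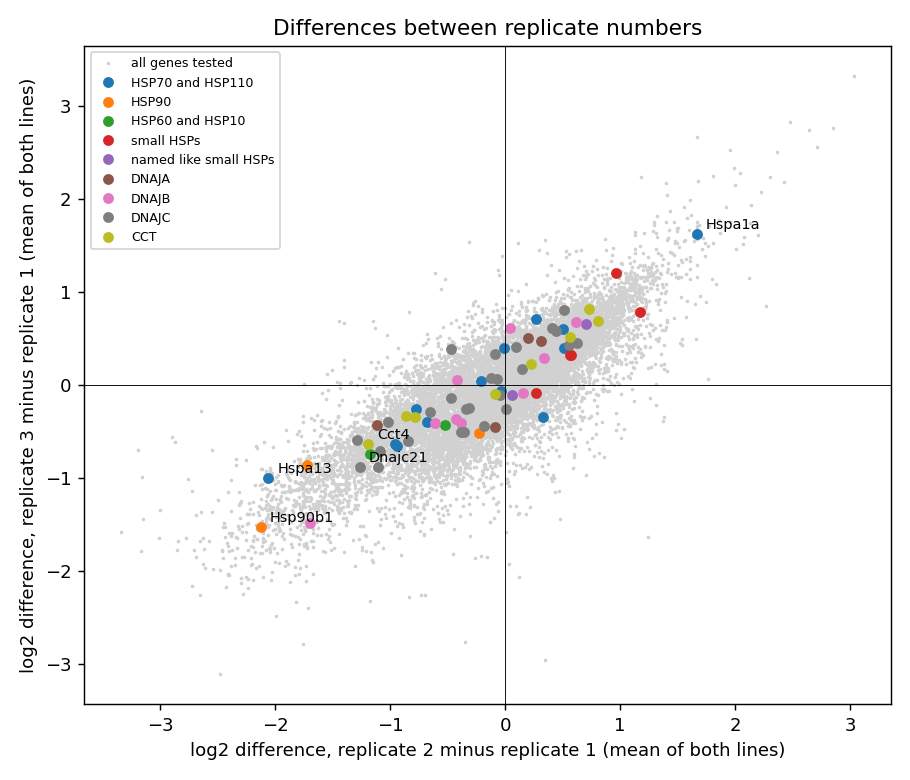
Log2 difference of replicate 2 minus replicate 1 (horizontal) and replicate 3 minus replicate 1 (vertical), averaged over the lines, for all 12891 tested genes (grey) and the 72 genes (coloured by family). The axes share the replicate 1 libraries, so the diagonal spread is built into the plot; *Hsp90b1* and *Hspa13* lie at the lower left and *Hspa1a* at the upper right.

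The members of 1 family, and in places of 1 complex, went opposite ways. CCT holds its subunits in equal number, and of the 8 CCT genes *Cct4*, *Cct8* and *Tcp1* were above in the replicate 1 libraries, *Cct3*, *Cct6a* and *Cct7* below, and *Cct2* and *Cct5* neither. *Cct7* had 10580, 15629 and 18560 normalized counts in EVX1-Δfs and 9344, 19429 and 13915 in Del#3. The ratio of *Cct7* reads to *Cct4* reads, which no scaling of the library can change, was 1.38, 4.60 and 4.00 in EVX1-Δfs and 1.38, 6.63 and 3.00 in Del#3. These genes were picked from opposite sides of the split by replicate 1, so the direction of the ratio follows from that choice and only its size is a description. *Cct2* was the steadiest of the 72 genes, at 5801 to 7171 normalized counts, a range of 1.24-fold. Per kb of exon, the highest CCT subunit was 4.00 times the lowest in EVX1-Δfs replicate 1 and 4.52 times in Del#3 replicate 1, and 8.39 to 14.4 times in the other libraries, with *Tcp1* the lowest in each. Per kb of the longest coding transcript, the ratio was 2.38 and 2.598 in the replicate 1 libraries and 4.60 to 8.83 in the others, with *Cct8* the lowest in each.

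The ER chaperones *Hspa5* and *Hsp90b1* also lay on opposite sides of that split, which fixes the direction of their ratio. *Hspa5* had 6388, 7586 and 10727 normalized counts in EVX1-Δfs and 5399, 6630 and 8606 in Del#3, lowest in replicate 1, where *Hsp90b1* was highest. The ratio of *Hspa5* reads to *Hsp90b1* reads was 1.76, 10.95 and 8.49 in EVX1-Δfs and 1.16, 5.17 and 5.35 in Del#3. Both promoters hold the ER stress element printed above. *Dnajc3*, the further gene with that element and the ER cochaperone p58IPK, had 323, 142 and 163 normalized counts in EVX1-Δfs and 282, 141 and 209 in Del#3 (−1.09 and −0.70, limma adjusted p = 0.0813), the order of *Hsp90b1* and not of *Hspa5*. With the correction for GC content and length its differences were −0.29 and −0.32 (limma adjusted p = 0.592), so that order was not kept. Those of *Hsp90b1* were then −1.60 and −1.40 (0.0110), and those of *Hspa5* 0.43 and 0.70 (0.104).

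None of the 4 genes whose promoters hold the 3 heat shock units passed the threshold between replicate numbers in limma, where 4.24% of all tested genes did, but *Hspd1* was called in 8 and *Hspe1* in 2 of 15 alternatives, and differences between these genes were not tested. The ratio of *Hspd1* reads to *Hspe1* reads, from genes that share a promoter region, was 1.94, 1.44 and 1.21 in EVX1-Δfs and 2.02, 1.11 and 2.10 in Del#3, so here Del#3 replicate 3 stood with the replicate 1 libraries. *Hspe1* had 3301, 1825 and 2486 normalized counts in EVX1-Δfs and 2347, 2048 and 1713 in Del#3 (−0.53 and −0.43, limma adjusted p = 0.275). *Hsph1* had 2709, 2739 and 3172 in EVX1-Δfs and 2276, 2229 and 3400 in Del#3 (−0.01 and 0.40, limma adjusted p = 0.301). *Dnajb6* had 1104, 662 and 861 in EVX1-Δfs and 964, 693 and 703 in Del#3 (−0.61 and −0.41, limma adjusted p = 0.173). The ratio of *Hsp90aa1* to *Hsp90ab1* reads, the inducible over the constitutive HSP90, ran from 0.0372 in EVX1-Δfs replicate 2 to 0.276 in Del#3 replicate 1. *Hsp90aa1* had the widest range of the 72 genes over the 6 libraries, 8.70-fold, where the median range was 1.86-fold for these genes and 1.96-fold for all tested genes.

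Base composition and depth moved with the replicate differences. Across the 72 genes, the difference of replicate 2 minus replicate 1 had a Spearman correlation of 0.51 with the GC content of the longest coding transcript, and across 11994 tested genes with such a transcript it was 0.49. For replicate 3 minus replicate 1 the values were 0.26 and 0.18. Genes of 1 library share its depth and its base composition, so these are descriptions across genes. The median GC content was 46.6% for the 25 genes above in replicate 1, 51.1% for the 16 below and 49.6% for the other 31. *Hsp90b1* (43.8%), *Hspa13* (39.8%) and *Cct4* (45.1%) lay below the median of 47.8% over the 72 genes, and *Hspa1a* (59.2%) and *Cct7* (54.0%) above. After each library was corrected for its trend with GC content and length, a step added after the data were seen, 7 of the 72 genes passed (3.77% of all genes). *Hsp90b1*, *Hspa1a* and *Dnajc21* remained, *Hspd1*, *Hspe1*, *Dnaja2* and *Dnajc19* were added, and *Cct4* (limma adjusted p = 0.0568, and 0.000256 to 0.431 over all alternatives) and *Hspa13* (0.103, and 0.000131 to 0.119) no longer passed. The corrected differences were −0.84 and −0.59 for *Cct4* and −1.12 and −0.56 for *Hspa13*. The size factors of the libraries were 1.52, 0.853 and 0.846 for EVX1-Δfs and 1.25, 0.861 and 0.936 for Del#3, and the part of depth in the replicate differences was not tested. The difference between the lines had a Spearman correlation with GC content of 0.01 across the 72 genes, and of 0.41 with transcript length (0.35 across all genes).

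**Figure D5:**
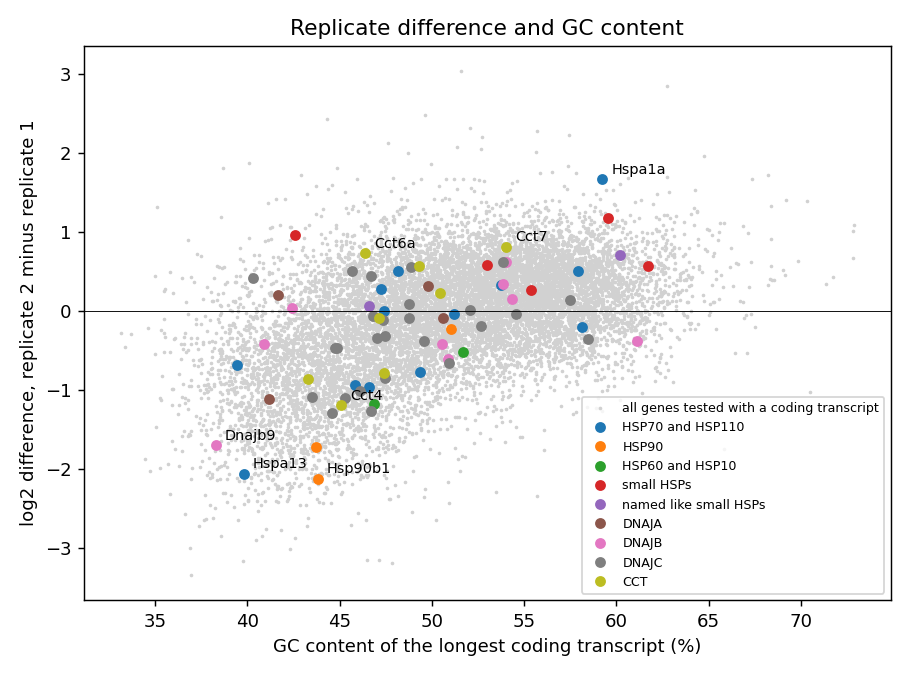
Log2 difference of replicate 2 minus replicate 1 against the GC content of the longest coding transcript, for all tested genes with such a transcript (grey) and the 72 genes (coloured by family). Genes of low GC content tend to lie below 0, with *Hspa13* and *Hsp90b1* the lowest of the 72 and *Hspa1a* the highest.

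Partners of these chaperones outside the families were compared in the same fits. None of the 26 cochaperones of HSP70 and HSP90, the 3 tested genes of heat shock factors and their binding protein (*Hsf1*, *Hsf2* and *Hsbp1*), the 13 tested prefoldin and CCT cofactor genes, the 20 ER folding and unfolded protein response genes, the 12 mitochondrial chaperones and proteases (*Hspa9* among them) or *Cryab* was called between the lines. Their medians were 0.01, −0.11, −0.12, −0.09 and −0.08 for the 5 lists, and *Cryab* was at 0.25. The ends of the lists were *Cdc37l1* at −0.46 and *Chordc1* at 0.38, *Hsbp1* at −0.14 and *Hsf1*, the main heat shock factor, at 0.34, *Tbca* at −0.49 and *Vbp1* at 0.25, *Sec61b* at −0.34 and *Sec63* at 0.28, and *Grpel2* at −0.43 and *Htra2* at 0.12. Between replicate numbers, 3 genes of these lists were called, where 4.24% of all tested genes were. *Sugt1*, a cochaperone of HSP90, differed by −1.18 and −0.77 (limma adjusted p = 0.0415), *Canx*, the ER lectin calnexin, by −1.61 and −0.88 (0.0258), and *Sec63*, the J-protein of the ER translocon, by −1.67 and −1.27 (0.0397). All 3 were highest in the replicate 1 libraries, as *Hsp90b1* was.

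Markers of the cell types that D4 EBs can hold were followed for the same reason. None of the tested markers of primitive streak and mesoderm (10), epiblast and pluripotency (7), definitive endoderm and anterior identity (6), visceral and primitive endoderm (7 of 8), neural cells (2 of the 4 in the table) or blood and endothelium (8) was called between the lines. Their median log2 differences were −0.10, −0.09, −0.14, 0.20, −0.20 and 0.11. The ends of these lists were *Mesp1* at −0.27 and *Tbx6* at 0.20, *Zfp42* at −0.82 and *Dnmt3b* at 0.01, *Sox17* at −0.35 and *Foxa2* at 0.01, *Gata6* at −0.14 and *Ttr* at 0.72, *Map2* at −0.27 and *Tubb3* at −0.12, and *Hbb-y* at −0.49 and *Runx1* at 0.38. *Zfp42*, a pluripotency marker, had 343, 341 and 457 normalized counts in EVX1-Δfs and 288, 181 and 187 in Del#3, lower in every Del#3 library (unadjusted limma p = 0.0156, adjusted limma p = 1.00, exact permutation p = 0.1). *Sox17*, an endoderm factor, was also lower in every Del#3 library (772, 800 and 715 against 518, 637 and 647), as was *Hbb-y*, an embryonic globin (27.1, 21.1 and 25.99 against 13.5, 19.7 and 19.2). Each was the only gene of its list whose lines did not overlap, where 3.51% of all tested genes did not. Above 0 were 1 of 7 epiblast and pluripotency, 1 of 6 definitive endoderm and anterior, and 6 of 8 blood and endothelial markers. Between replicate numbers only *Hba-x*, another embryonic globin, was called, where 4.24% of all tested genes were (−2.35 and −1.94, limma adjusted p = 0.0238), with 221, 53.9 and 77.98 normalized counts in EVX1-Δfs and 355, 54.6 and 67.3 in Del#3. The summed level of the visceral and primitive endoderm markers was 6744 and 7363 in the replicate 1 libraries and 8273 to 9473 in the other 4. Most of that sum was *Apoe* (4911 and 5642 against 6955 to 8105). *Ttr* (40.9 and 69.3 against at most 40.6), *Gata4* (1124 and 933 against 679 to 761) and *Sox7* were higher in both replicate 1 libraries than in the others. Over all tested genes 22.2% were. For *Afp*, *Apoa1*, *Gata6* and *Hnf4a* the replicate 1 libraries overlapped the others. The summed primitive streak and mesoderm markers were at 10566 and 9134 against 11388 to 12640. Of these 10 genes, *Eomes* (2734 and 2072 against 3185 to 4027) and *Mesp1* were below in both replicate 1 libraries, where 22.7% of all tested genes were. For the rest of that list the replicate 1 libraries overlapped the others. Those of epiblast and pluripotency summed to 18295 and 21520 against 16477 to 27100. The summed definitive endoderm markers were at 4553 and 3692 against 4636 to 5453, the neural markers at 292 and 264 against 260 to 406, and the blood and endothelial markers at 2025 and 1964 against 1724 to 2051. No marker was at 0 in all libraries. The part of cell composition in the replicate differences of the chaperone genes was not tested.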

How the data were processed

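Ion Proton mRNA-seq reads had been mapped by the authors to the mm9 genome (TopHat2, followed by TMAP). They were counted on genes with HTSeq and tested with DESeq2, both at standard settings. Versions, annotation and mapping settings are not given in the sources used here. The signal values deposited by the authors are gene counts divided by size factors, for 15266 genes and 6 libraries. The step between values gave the reads back, and 100% of the values came out whole in every library (within 0.02). The table has no row without a gene name and 0 columns of other samples.

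Values were tested as log2(normalized count + 1) with limma 3.58.1 (R 4.3.3, intensity trend). Genes passing filterByExpr of edgeR 4.0.16 on the reads (minimum count 10) were kept, 12891 in all, with Benjamini-Hochberg adjustment over all of them and a threshold of 0.05. The fold changes on this scale understate the change of low genes. Line was the only term in the first comparison, and the F test of replicate number had line in the model. On the recovered reads, edgeR's quasi-likelihood test called 0 of the 72 tested chaperone genes between lines (0.0155% of all genes) and 4 between replicate numbers (3.58%). DESeq2 1.42.0 called 0 (0.0233%) and 17 (11.2%). Other alternatives were TMM factors, total reads, filters, pseudocounts of 0.1 and 5, the replicate block and leaving out each library; a GC and length correction was added after the data were seen. The scripts were tested on simulated data, where the fits with replicate number made more false calls than the threshold allows.

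The study's design text describes the replicates as side-by-side differentiations of both lines, each set on its own day, so same-numbered libraries were taken as pairs, although the text does not list the numbers. The deviations of same-numbered libraries from their line's mean correlated at 0.74, 0.32 and −0.05 across tested genes; differently numbered libraries ranged from −0.66 to 0.42, the highest being EVX1-Δfs 3 with Del#3 2. Levels are reads per kb of exon (GENCODE vM1 on NCBIM37, the mm9 assembly; 78 of 78 genes matched) and per the library's reads on listed genes (RPKM), and GC content is that of the longest coding transcript. Intervals are 95% intervals of limma. Depth was 9024579 to 15699124 reads on listed genes. The intervals rest on the spread between the 3 libraries of a line, and the part of counting error in it was not tested. Some genes had few reads, such as *Dnajb9* with 8 in EVX1-Δfs replicate 2.

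Full values are given for genes called in the line comparison, the 3 highest and the 3 lowest differences between lines, the 6 smallest p between replicate numbers, the 3 highest levels and a fixed list of chaperones and CCT subunits; in the other lists those called and the 2 ends. *Dnajb6*, *Dnajc3*, *Dnajc8*, *Dnaja2*, *Hspa1l* and other genes outside this rule were named after their values were seen. The genes and lists were chosen with earlier results of these data known. Protein sequences were not used here.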

Additional observations from a re-analysis of the deposited data

How the results depend on the processing

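No chaperone gene was called between the lines in limma or in any of 17 alternatives, and the median difference of the 72 genes stayed between −0.133 and −0.036. With the replicate block, limma called 0 of them (0.0233% of all genes), with 3 at an unadjusted p under 0.05 (*Hsp90b1*, *Dnajc13* and *Dnajc19*) against 4.62% of all genes, and the block changed no call of these genes. Of the 29 genes with full values, 12 kept the sign of the line difference in every alternative that gave a value (17, or 16 for *Dnajb9*, which the stricter filter removed), and the others, none of them called, changed sign in at least 1. Between replicate numbers, 24 of the 29 kept their sign in every alternative that gave a value (15, or 14 for *Dnajb9*). The count of 5 genes called between replicate numbers became 3 with TMM factors and 3 with total reads (*Cct4*, *Hsp90b1* and *Hspa13* in both), 17 with DESeq2's likelihood ratio test, and 1 to 22 on leaving out single libraries, where the day with 1 library is assumed to vary like the others. The cause of these changes was not tested. Measured per kb of the longest coding transcript instead of all exons, the levels of 21 of the 78 genes rose by more than 1.5 times, since fewer bases are counted, among them *Tcp1* from 76.1 to 156 RPKM, *Hspa8* from 750 to 1302, *Cct3* from 196 to 464, *Hspe1* from 147 to 279 and *Dnajc8* from 86.9 to 158.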
